A study of Mus musculus with 17 samples.

Results

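The genes described here belong to the integrated stress response and the unfolded protein response. They were 10 genes given by name, Atf4, Ddit3, Trib3, Chac1, Asns and Sesn2 for the first pathway and Xbp1, Hspa5, Ern1 and Atf6 for the second, and the rule that picked them used no measured value. The deposited tables listed 16410 genes for tumor cells, 13545 for TRMs and 13407 for MDMs, and the 10 genes had 10, 9 and 10 rows among them, since Chac1 had none in TRMs. They were followed in 12 RNA sequencing libraries, 2 each from KL and KLG4 mice of tumor cells, TRMs and MDMs. TRM and MDM are the labelled names of the macrophage populations of lung tumors. Left out were 5 samples of the series, which were not used here.

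The integrated stress response begins with kinases that phosphorylate the translation initiation factor eIF2α when amino acids, heme or folding capacity run short or when viral RNA is present. General translation then slows while ATF4 is made, and ATF4 switches on genes for amino acid supply, for the response to oxidants and, through CHOP (the product of Ddit3), for cell death. The unfolded protein response is read out from the endoplasmic reticulum (ER) by PERK, IRE1α (the product of Ern1) and ATF6. PERK is also an eIF2α kinase, so that both pathways meet at ATF4. IRE1α splices the Xbp1 message, and the XBP1 and ATF6 proteins raise chaperones such as BiP (the product of Hspa5). ATF4 translation, ATF6 cleavage and Xbp1 splicing are not visible in the level of a message summed over a gene. Among ATF4 targets Chac1, a glutathione-degrading enzyme, is widely used as a readout of cystine shortage in ferroptosis, the form of cell death by lipid peroxidation that GPX4 prevents.

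KL mice carried KrasLSL-G12D/+ and Lkb1 fl/fl (the gene symbol is Stk11), and KLG4 mice carried in addition Gpx4 m/m, a knocked-in allele from which exons 5 to 7 can be excised. Cre opens the expression of a tamoxifen-dependent Dre recombinase from this allele, and Dre then removes the exons. Both genotypes had received Ad-Cre by the nose at 8 to 10 weeks of age to start tumors, and tamoxifen at 80 mg/kg every other day for 2 weeks from 5 weeks after infection. Cells were taken 10 weeks after infection. The loss was therefore designed for cells that Ad-Cre had reached. The labels do not say whether the libraries of a group came from separate mice. The paper names mice as the unit for the tumor cell libraries. In every population p-values measure only the spread between these libraries, which may be technical.

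The libraries held 9.14 to 36.6 M (megareads) of counted reads, recovered from the deposited values. Several of them stood apart. Both KLG4 tumor cell libraries were nearly alike, with a chi-square statistic of 3.28 per gene against 60.4 for the KL pair, so that p-values in tumor cells may be too small. Mitochondrial genes took 22.5% to 31.6% of reads in KL TRMs and 2.96% to 5.80% in KLG4 TRMs. In tumor cells they took 7.39% and 8.28% in KL and 14.9% and 14.7% in KLG4, the opposite direction. Xist, made from the inactive X, was at 0.257 and 0.501 RPKM (reads per kilobase of gene, scaled to library size) in KL TRMs and at 18.3 and 20.2 RPKM in KLG4 TRMs, so that sex and genotype cannot be told apart there. KL MDMs held 21.8 and 0.839 RPKM of it and each KLG4 MDM library 19.4 RPKM, so that KL replicate 2 differed from the other 3. Gpx4 itself was at 94.95 and 76.8 RPKM in KL tumor cells and at 56.4 and 61.9 RPKM in KLG4 tumor cells, counted over all exons. In TRMs the KL libraries held 89.8 and 88.2 RPKM of it and the KLG4 libraries 53.8 and 57.0 RPKM, whereas in MDMs these were 44.9 and 71.3 RPKM and 93.6 and 97.7 RPKM.

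The markers of each labelled cell type were present, and other markers were present too. In the tumor cell libraries the epithelial marker list summed to between 6566 and 8793 RPKM in KL and to 3801 and 3823 RPKM in KLG4. Fibroblast markers summed to 15.5 to 20.7 RPKM in KL and to 515 to 530 RPKM in KLG4, and all 10 lay higher in KLG4. The alveolar macrophage list was high in TRMs, at 8454 to 13130 RPKM. In MDMs the neutrophil list reached 10650 to 23320 RPKM, most of it S100a9, while the monocyte-derived macrophage list summed to 1198 to 3246 RPKM. The highest of these 4 monocyte-derived sums was that of KL replicate 2, which also carried the most epithelial marker RNA of the MDM libraries. MDMs are called by their label below.

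**Figure D1:**
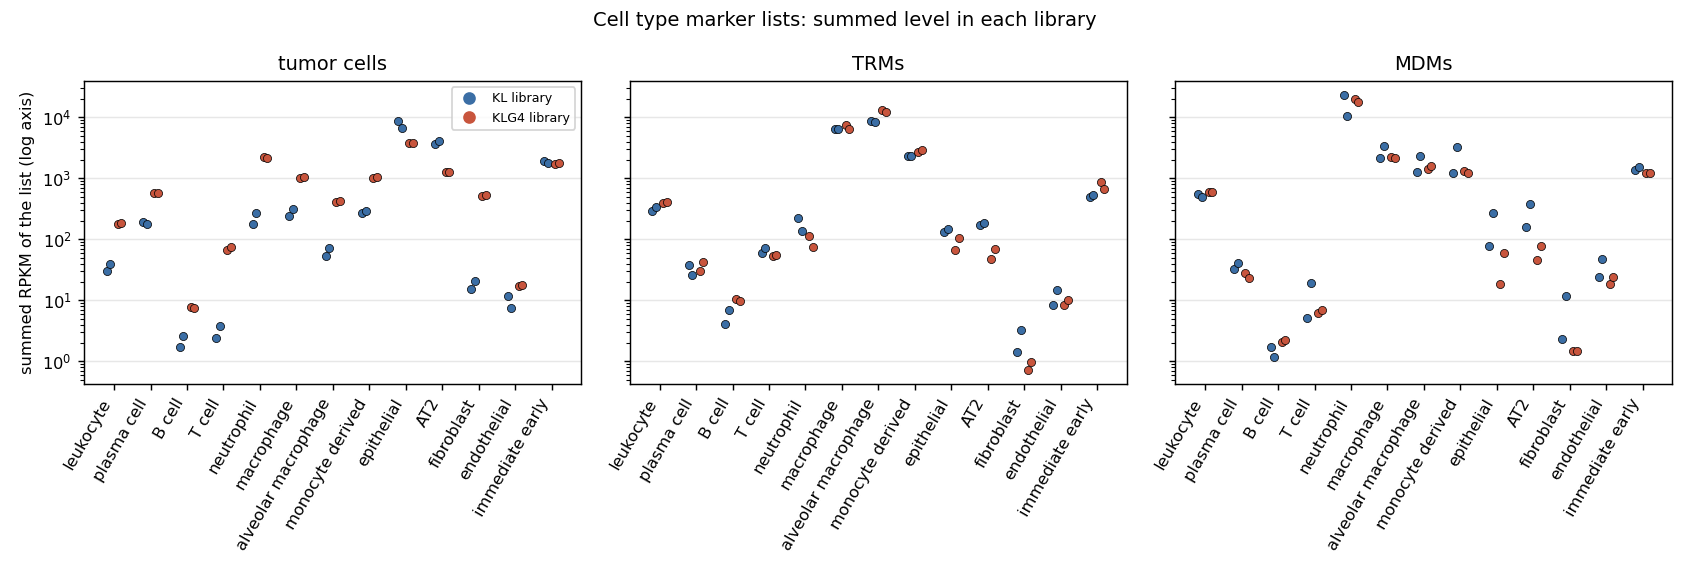
Summed RPKM (log axis) of 13 marker lists in each KL (blue) and KLG4 (red) library of tumor cells, TRMs and MDMs. In tumor cells the KLG4 libraries lie above the KL libraries for leukocyte, plasma cell, T cell, neutrophil and fibroblast lists and below them for epithelial and AT2 lists, and in MDMs the neutrophil list is the highest.

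RefSeq promoter windows (GRCm38.p6) of 250 bases before to 50 after the start were matched for 9 of the 10 genes, the exception being Atf6. They were searched on both strands for the core of the C/EBP-ATF response element bound by ATF4 (TGATGNAA), the ER stress response element ERSE (CCAAT, any 9 bases, CCACG), its second form ERSE-II (ATTGG, any base, CCACG) and the unfolded protein response element UPRE (TGACGTGG). The response element core was found in Chac1, Asns and Trib3 and in 3.97% of 32851 promoters of the same length. ERSE was found in Hspa5 and in 0.119% of promoters, and no window of the 9 held ERSE-II (0.0365% of promoters) or UPRE (0.676%). No match overlapped another. The stretches below are given because Chac1, Sesn2 and Ddit3 were the genes that passed the test in tumor cells, and because Asns and Hspa5 show the element of each pathway. Capitals mark the match, and the first 3 stretches end where the GENCODE gene begins.

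Chac1, chr2:119350992-119351228, plus strand, core on the opposite strand at bases -193 to -186 from the start: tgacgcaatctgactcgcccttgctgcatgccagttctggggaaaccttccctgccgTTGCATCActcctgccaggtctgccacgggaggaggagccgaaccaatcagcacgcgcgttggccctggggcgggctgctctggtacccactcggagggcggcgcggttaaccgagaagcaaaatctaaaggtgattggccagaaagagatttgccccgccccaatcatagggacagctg
Sesn2, chr4:132510502-132510706, minus strand, no match: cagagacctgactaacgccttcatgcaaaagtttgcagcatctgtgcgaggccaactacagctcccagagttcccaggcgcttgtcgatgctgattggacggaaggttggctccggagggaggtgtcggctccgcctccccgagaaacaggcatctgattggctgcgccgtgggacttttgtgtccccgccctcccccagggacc
Ddit3, chr10:127290543-127290773, plus strand, no match: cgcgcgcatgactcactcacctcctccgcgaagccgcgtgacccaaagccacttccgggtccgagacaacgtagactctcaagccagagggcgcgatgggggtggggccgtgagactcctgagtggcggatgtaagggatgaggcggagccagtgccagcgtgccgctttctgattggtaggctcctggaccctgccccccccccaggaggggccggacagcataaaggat
Asns, chr6:7693214-7693243, minus strand, core at bases -23 to -16: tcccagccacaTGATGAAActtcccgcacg
Hspa5, chr2:34772020-34772049, plus strand, ERSE at bases -65 to -47: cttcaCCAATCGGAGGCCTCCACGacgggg

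The Asns and Hspa5 matches lie inside the untranslated first exon of a longer GENCODE transcript of each gene. The Trib3 match lies after the start, at bases 14 to 21. The absence of a match in Sesn2 and Ddit3 says only that these letters were not in these windows.

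The 10 genes covered a wide range of levels. Hspa5 was the most abundant in each, with a mean over the 4 libraries of 555 RPKM in tumor cells, 257 RPKM in TRMs and 323 RPKM in MDMs. It stood at the 99.4th, 98.4th and 98.6th percentile of the genes of these tables. Atf4 came next at 243, 103 and 196 RPKM, and Ddit3 was at 79.3, 31.0 and 123 RPKM. Xbp1 was at 30.8 to 39.8 RPKM. The sensors Atf6 and Ern1 lay between 3.11 and 6.63 RPKM. Trib3 (0.436 to 2.66 RPKM) and Chac1 (1.62 RPKM in tumor cells, 0.640 RPKM in MDMs) were the lowest of the genes. The tables were normalized separately, so these levels are side by side without a test.

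**Figure D2:**
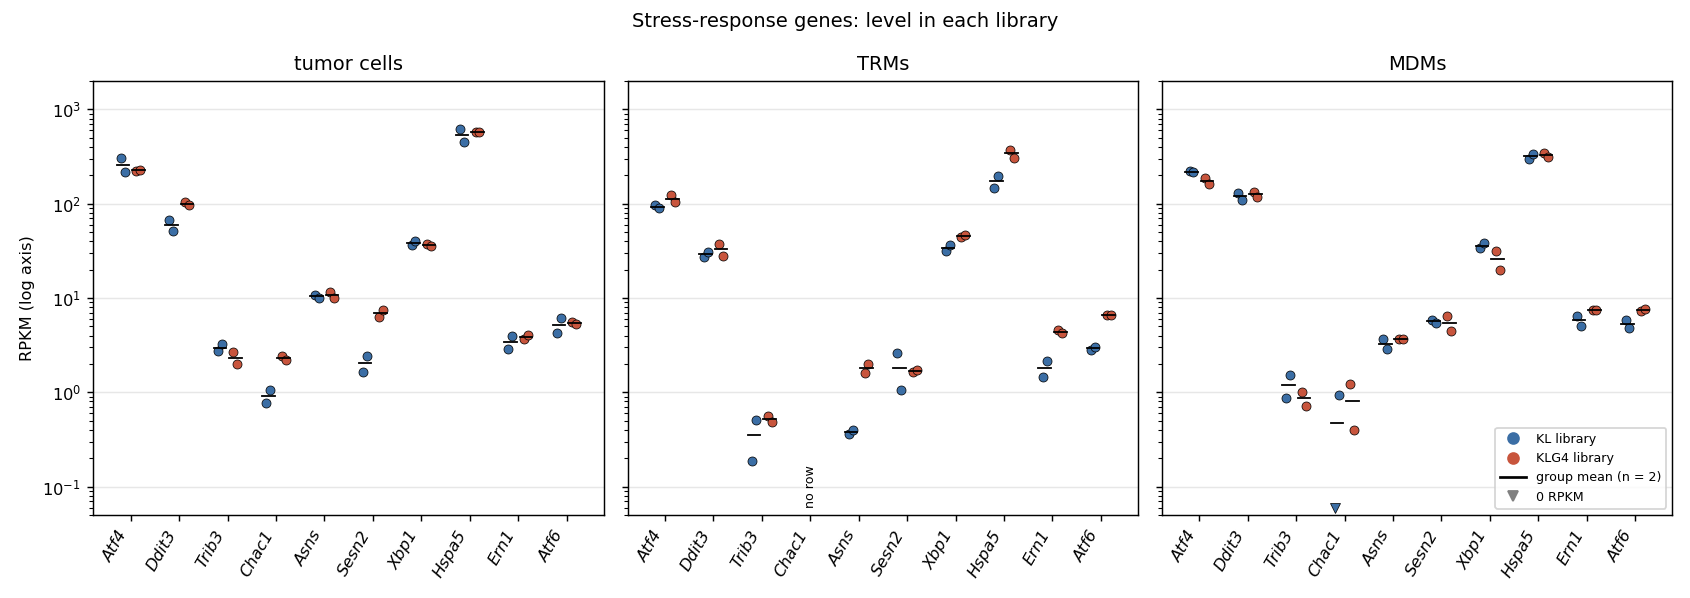
RPKM (log axis) of the 10 genes in every KL (blue) and KLG4 (red) library of tumor cells, TRMs and MDMs, with bars for the mean of each group (n = 2). In tumor cells Sesn2, Chac1 and Ddit3 lie wholly higher in KLG4 and Trib3 lies wholly lower. Asns, Ern1, Atf6 and Hspa5 separate in TRMs, as do Atf4 and Xbp1 by less. In MDMs 5 of the 9 genes tested overlap, and the triangle is a KL library with 0 RPKM of Chac1.

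In tumor cells, Sesn2, Chac1 and Ddit3 rose in KLG4 and none of the 10 genes fell. These 3 of 10 calls at an adjusted p under 0.05 stood against 40.3% of all 13770 genes tested, of which 20.6% were called higher and 19.6% lower, so the share of the 10 genes was near the background. All 3 are known targets of ATF4, but so is Asns, which was not called (log2 fold change 0.04). Trib3 (-0.35), Atf4 itself and the genes of the unfolded protein response were not called either. The median log2 fold change of the 10 genes was 0.10, and that of all genes tested was -0.09.

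Sesn2 (chromosome 4, 132492032 to 132510501) encodes sestrin 2, a leucine sensor that holds back mTORC1 and takes part in the response to oxidants. It was at 1.63 and 2.42 RPKM in KL tumor cells and at 6.26 and 7.47 RPKM in KLG4 tumor cells. The KLG4 pair lay above the KL pair, and the means differed 3.39-fold (6.86 ± 0.851 against 2.03 ± 0.553 RPKM, SD, n = 2). On the log2 scale the difference was 1.73 ± 0.24 (SE; adjusted p 0.0040, limma). It stayed past the threshold in all 14 settings that could test it, with log2 fold changes of 1.39 to 2.00, among them the 4 fits that each left out 1 library.

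Chac1 (chromosome 2, 119351229 to 119354381) was at 0.767 and 1.07 RPKM in KL and at 2.46 and 2.19 RPKM in KLG4 tumor cells. The groups did not overlap, but the values rested on 46, 53, 71 and 57 counted reads. The KL pair alone would not have passed the filter of 1 RPKM in 2 libraries. With no filter the adjusted p was 0.011 in limma. The log2 fold change was 1.26 ± 0.24 (SE, adjusted p 0.012 in limma), and the ratio of means was 2.53. Ddit3 (chromosome 10, 127290774 to 127296288), the gene of the pro-apoptotic factor CHOP, was at 66.8 and 51.2 RPKM in KL and at 103 and 96.0 RPKM in KLG4. The ranges were again apart, by 1.69-fold in the means, and the log2 fold change was 0.77 ± 0.16 (SE, adjusted p 0.015 in limma). Of the exon bases of Ddit3, 3.97% are shared with Mars on the opposite strand, which was counted without regard to strand. Without KLG4 replicate 1 or 2, neither gene passed the threshold, with adjusted p of 0.078 and 0.053 for Chac1 and of 0.13 and 0.090 for Ddit3.

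Atf4 and the amino acid gene Asns did not move with them. Atf4 (chromosome 15, 80255184 to 80257541) was at 305 and 216 RPKM in KL and at 224 and 229 RPKM in KLG4 tumor cells. The KLG4 values lay within the KL range, and the log2 fold change was -0.18 with a 95% interval of -0.65 to 0.28. Its sign rested on KL replicate 1, since it was 0.07 without that library, and it was -0.43 with a call (limma adjusted p 0.0016) without KL replicate 2. The level of Ddit3 relative to Atf4, both per length, was 0.219 and 0.237 in KL and 0.461 and 0.419 in KLG4. Asns (chromosome 6, 7675169 to 7693254), asparagine synthetase and a classical ATF4 target, was at 10.9 and 10.1 RPKM in KL and at 11.6 and 10.1 RPKM in KLG4. The interval of its log2 fold change ran from -0.32 to 0.40, so that a 2-fold change lies outside it.

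Trib3 (chromosome 2, 152337422 to 152344032), a pseudokinase induced by CHOP that feeds back on ATF4, was at 2.72 and 3.24 RPKM in KL and at 2.67 and 2.01 RPKM in KLG4 tumor cells. Both KLG4 values lay below both KL values, and the difference did not pass the test (log2 fold change -0.35, limma adjusted p 0.27). In all genes tested, 42.2% lay wholly lower in KLG4, with no overlap between the genotypes, and 32.5% lay wholly higher. Of the 10 genes, 3 lay wholly higher, 1 lay wholly lower and 6 overlapped.

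The 4 genes of the unfolded protein response overlapped between genotypes in tumor cells. Hspa5 (chromosome 2, 34771970 to 34777547), the ER chaperone BiP, was at 622 and 454 RPKM in KL and at 570 and 575 RPKM in KLG4. Xbp1 (chromosome 11, 5520659 to 5525893), the transcription factor made by IRE1α splicing, was at 36.6 and 40.3 RPKM in KL and at 37.5 and 35.6 RPKM in KLG4. The KL libraries of Hspa5 were farther apart than the group means, and its direction rested on them. The log2 fold change was 0.34 (limma adjusted p 0.0023) without KL replicate 1 and -0.12 (limma adjusted p 0.049) without KL replicate 2. Ern1 (chromosome 11, 106394650 to 106487852), the gene of IRE1α, was at 2.91 and 3.98 RPKM in KL and at 3.70 and 4.09 RPKM in KLG4. Atf6 (chromosome 1, 170704674 to 170867771), the membrane-bound factor cut in the Golgi, was at 4.24 and 6.14 RPKM in KL and at 5.59 and 5.36 RPKM in KLG4. Their log2 fold changes were between -0.07 (Xbp1) and 0.19 (Ern1), with adjusted p from 0.52 to 0.74 in limma. The 95% intervals of the 4 genes together ran from -0.45 to 0.72.

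**Figure D3:**
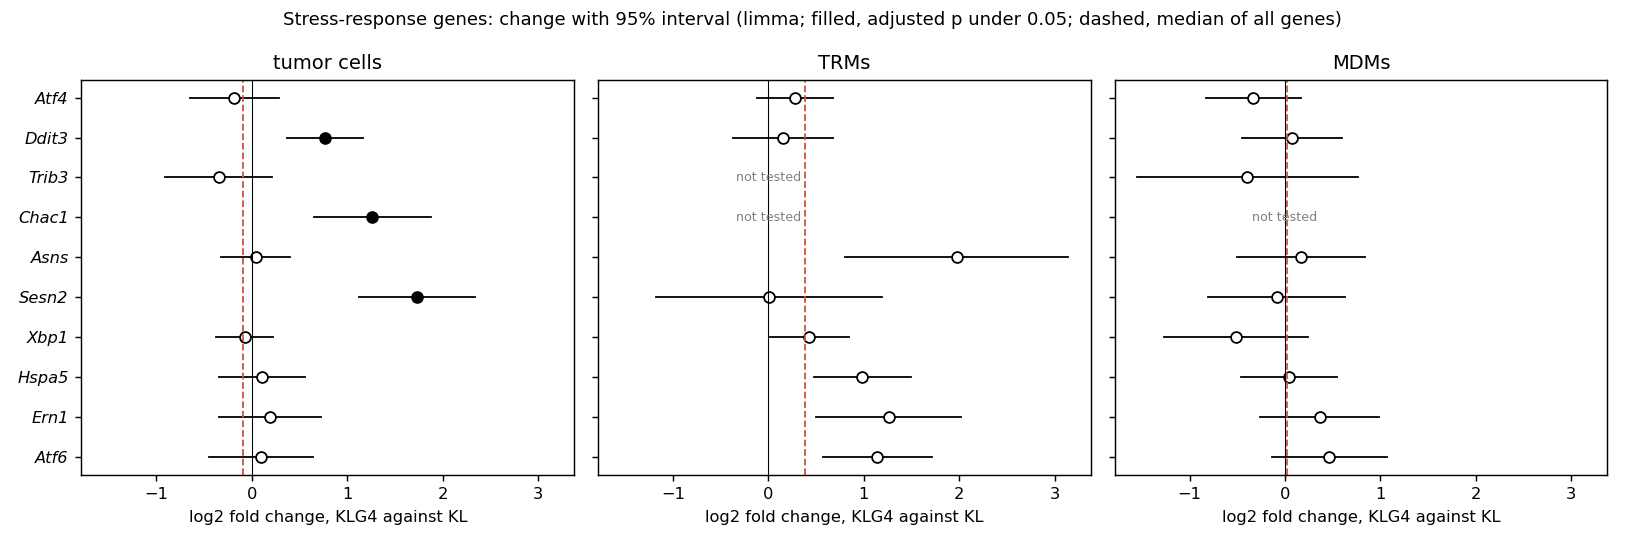
Log2 fold change (KLG4 against KL, on the log2(RPKM + 0.1) scale) of each gene with its 95% interval from limma in tumor cells, TRMs and MDMs, filled where the adjusted p was under 0.05. The filled points are Ddit3, Chac1 and Sesn2 in tumor cells, and the dashed line is the median of all genes tested, at 0.38 in TRMs.

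The other genes of both pathways were followed in 7 lists, of which 87 genes were tested in tumor cells. There 11 rose and 11 fell, 22 in all, while 65 did not pass, beside 40.3% of all genes called, 20.6% higher and 19.6% lower. The lists thus held no larger a share of calls than all genes. The split moved with the scaling, to 10 higher and 13 lower with quantile scaling, 12 and 7 with TMM factors, 14 and 7 after rescaling to reads outside mitochondrial genes and 15 and 7 in limma-voom. Without KLG4 replicate 1 or 2, the lists had 6 and 5 calls, beside 1953 of 12451 and 1843 of 12461 genes, and without KL replicate 1 or 2 they had 36 and 38, beside 6556 of 13423 and 7243 of 13347 genes.

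Of the 7 genes that act at eIF2α, 2 rose and 1 fell, beside 20.6% and 19.6% of all genes. Ppp1r15a, the stress-induced subunit of the eIF2α phosphatase (GADD34), was at 378 and 387 RPKM in KL and at 1148 and 1174 RPKM in KLG4 tumor cells. This difference of 1.60 on the log2 scale passed the test (adjusted p 5.1e-04, limma). Eif2ak3, the gene of PERK, rose from 7.70 and 7.92 RPKM to 11.6 and 11.5 RPKM (log2 fold change 0.56, limma adjusted p 0.022). Eif2s1, the gene of eIF2α, fell from 46.9 and 41.2 RPKM to 28.5 and 28.7 RPKM. The median of the list was -0.14.

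The ATF4 and CHOP effector list held 14 tested genes, of which 2 rose and 3 fell, beside the same 20.6% and 19.6%. Cebpb, a partner of ATF4 at the C/EBP-ATF element, rose from 26.1 and 26.4 RPKM to 61.2 and 67.4 RPKM. Pmaip1, the BH3-only gene of NOXA, rose from 33.9 and 31.0 RPKM to 75.6 and 81.6 RPKM. Both KLG4 libraries were more than 2-fold above both KL libraries for each. Atf3, an immediate stress factor, fell from 859 and 882 RPKM to 633 and 636 RPKM (log2 fold change -0.46, limma adjusted p 0.027), a call lost under all 3 other scalings (adjusted p 0.064 to 0.099). Ddit4, an mTORC1 inhibitor, and Tnfrsf10b, a death receptor gene that CHOP induces, fell by 0.91 and 0.87 on the log2 scale. The list as a whole thus held calls in both directions, with a median of -0.09. Fos, an immediate early gene that cell isolation can raise, was at 563 and 535 RPKM in KL and at 323 and 331 RPKM in KLG4, and the immediate early list summed to 1776 to 1928 RPKM and 1737 to 1780 RPKM. Of the 10 genes of that list, 5 lay wholly higher and 3 wholly lower in KLG4, 1 was called in each direction, and the median was 0.08. The part of cell isolation in these genes was not tested.

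Amino acid supply showed 1 call among 16 genes, beside 40.3% of all genes. Slc7a11, the light chain of the cystine-glutamate exchanger system xc-, was at 1.12 and 2.38 RPKM in KL and at 24.6 and 25.8 RPKM in KLG4 tumor cells. Its log2 fold change of 3.86 was the largest of the 87 genes (limma adjusted p 9.5e-04). Its heavy chain Slc3a2 overlapped between the genotypes at 74.8 and 77.2 against 80.0 and 73.9 RPKM, and the list median was 0.01. The level of Slc7a11 was 53.1 to 61.1 RPKM in MDM libraries and 5.26 to 9.48 RPKM in TRM libraries. Among the 12 aminoacyl-tRNA synthetase genes, which ATF4 also induces, 3 fell and none rose, beside 19.6% called lower among all genes. They were Cars (29.7 and 20.3 to 11.6 and 11.97 RPKM), Sars (101 and 94.4 to 53.5 and 50.3 RPKM) and Tars (71.1 and 72.6 to 47.2 and 43.7 RPKM), and 10 of the 12 lay wholly lower in KLG4, beside 42.2% of all genes.

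The lists of the unfolded protein response were not compared with each other by a test. Of 18 genes for ER-associated degradation and translocation, 5 rose and none fell in tumor cells, beside the 20.6% and 19.6% of all genes, and with quantile scaling 4 rose and 2 fell. Derl3, part of the retrotranslocation machinery, was the lowest of them, at 0.204 and 0.198 RPKM in KL and at 1.15 and 1.32 RPKM in KLG4, from 10, 8, 27 and 28 counted reads. It passed the filter on low values (1 RPKM in 2 libraries) through the KLG4 libraries alone, so that its place among the rises was set in part by the filter, and 4 of the other 17 genes rose. Sec24d, a coat protein of ER export, rose from 2.53 and 3.04 RPKM to 5.64 and 5.54 RPKM. The other 3 calls were Dnajb9, Edem1 and Herpud1, each with a log2 fold change of 0.78 to 0.89. Of 14 folding genes, 3 fell and none rose, again beside 19.6% lower among all genes, and with TMM factors or after rescaling 1 fell and 1 rose. Pdia4, a disulfide isomerase, fell from 211 and 204 RPKM to 135 and 141 RPKM. The lectin chaperone Canx fell from 172 and 188 RPKM to 133 and 125 RPKM, and Sil1, the exchange factor of BiP, fell by 0.46 on the log2 scale. Canx lost its call under all 3 other scalings and Sil1 under 2. Among the 6 transducers tested, Creb3l1, a membrane-bound factor cut like ATF6, rose from 3.17 and 3.82 RPKM to 6.86 and 6.37 RPKM. Rtcb, the ligase that joins spliced Xbp1, fell by 0.41, a call lost under all 3 other scalings (limma adjusted p 0.069 to 0.091).

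Markers of other cells moved with genotype in the same libraries. The leukocyte list summed to 30.1 and 39.5 RPKM in KL and to 181 and 185 RPKM in KLG4 tumor cells, with all 10 genes higher. Ptprc, the gene of CD45, was at 0.834 and 2.06 RPKM in KL and at 26.7 and 27.4 RPKM in KLG4. Neutrophil markers summed to 179.3 and 272.5 RPKM in KL and to 2260 and 2165 RPKM in KLG4. Macrophage markers summed to 243 and 308 RPKM and to 1007 and 1048 RPKM. The plasma cell list, a cell type known for a high secretory load, summed to 194 and 178 RPKM and to 574 and 573 RPKM. Of its 12 listed genes, 10 lay wholly higher and 1 wholly lower in KLG4. Among the higher were Jchain, at 0.304 and 0.631 against 101 and 112 RPKM, and Mzb1, at 0.121 and 0.658 against 11.7 and 10.8 RPKM. No gene of these lists was at 0 in both KLG4 libraries. Epcam was at 638 and 420 RPKM in KL and at 215 and 211 RPKM in KLG4, and the AT2 gene Sftpc was at 1324 and 1506 against 331 and 335 RPKM. In such bulk libraries fewer cells of a type and less RNA per cell cannot be told apart. The tumor cells were sorted as EpCAM+ and CD31-, and the paper gives CD45 as absent in some places and as present in others. The part of other cells in the changes of Sesn2, Chac1, Ddit3, Ppp1r15a, Slc7a11 and the ER genes was not tested.

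**Figure D4:**
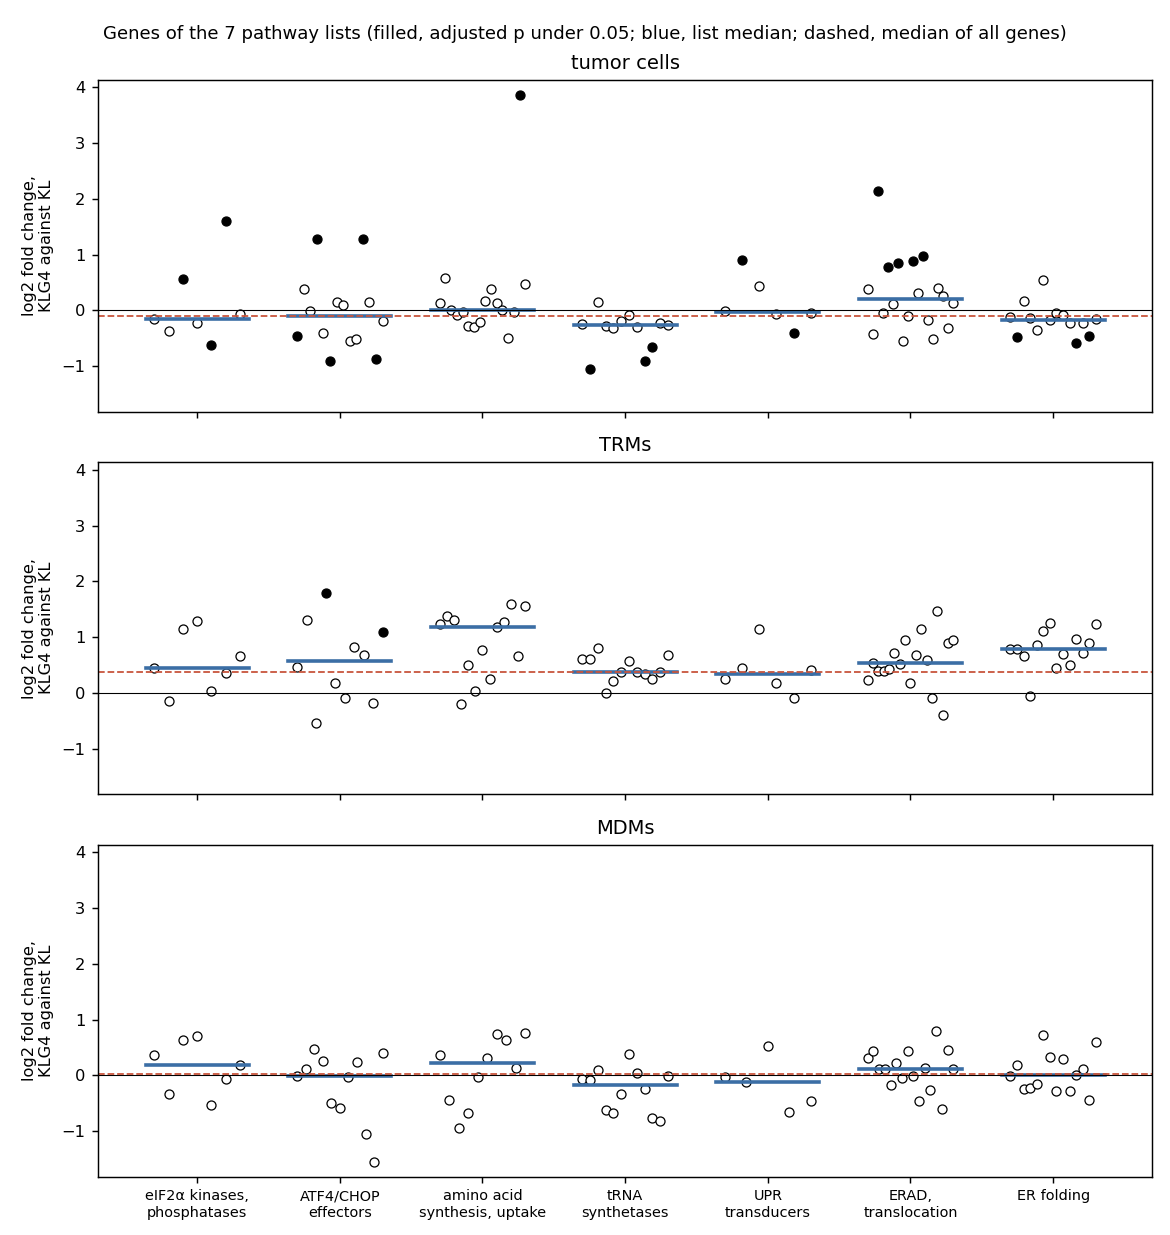
Log2 fold change (KLG4 against KL) of each tested gene of 7 pathway lists in tumor cells, TRMs and MDMs, filled where the adjusted p was under 0.05 in limma, with list medians in blue and the median of all genes as a dashed line. Tumor cells hold calls in both directions, with Slc7a11 at 3.86, TRMs hold Cebpb and Pmaip1, and MDMs hold none.

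In TRMs none of the 8 genes tested passed an adjusted p under 0.05, where 1.80% of 10990 genes did. All 8 had a log2 fold change above 0, and 6 lay wholly higher in KLG4, beside 53.7% of all genes tested. A looser threshold, an unadjusted p below 0.05 together with a 2-fold difference, took 3 genes, Asns, Ern1 and Atf6, all higher, beside 12% of all genes. Asns had reached the filter on low values through the KLG4 libraries alone, which leaves 2 of the other 7 genes. Those 2 were under 2-fold with quantile scaling, TMM factors and rescaling to reads outside mitochondrial genes. In turn, the log2 fold changes were 0.845, 0.886 and 0.89 for Ern1 and 0.723, 0.759 and 0.76 for Atf6. At an unadjusted p under 0.05 alone there were 5 of 8, beside 28.3% of all genes in either direction. Without KL replicate 2, which left a single KL library, Asns, Atf6, Ern1 and Hspa5 were called, 4 of 8, beside 2631 of 10680 genes in that fit. The median was 0.71 for these genes and 0.38 for all genes tested. With TMM factors these medians were 0.32 and 0.00, so that the shift of all genes was no longer there.

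Asns, which could enter the TRM test only by being high in KLG4, was at 0.366 and 0.400 RPKM in KL and at 1.61 and 1.99 RPKM in KLG4 TRMs, from 10, 10, 118 and 64 counted reads. The groups were wide apart, 4.70-fold in the means, at a log2 fold change of 1.97 ± 0.48 (SE, limma adjusted p 0.080). It passed the test without KL replicate 2 (adjusted p of 0.021), and its adjusted p over all its settings ran from 0.021 to 0.18.

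The 3 sensors and the chaperone of the unfolded protein response followed. Atf6 was at 2.82 and 3.06 RPKM in KL and at 6.55 and 6.63 RPKM in KLG4 TRMs (log2 fold change 1.14, limma adjusted p 0.063). Ern1 was at 1.47 and 2.16 RPKM in KL and at 4.59 and 4.24 RPKM in KLG4 (1.26, adjusted p of 0.082). For both genes the lower KLG4 library was well above the higher KL library. The PERK gene Eif2ak3 was at 3.14 and 2.76 RPKM in KL and at 7.22 and 6.01 RPKM in KLG4 (1.14, adjusted p of 0.068). Hspa5 was at 148 and 198 RPKM in KL and at 375 and 307 RPKM in KLG4, a log2 fold change of 0.98 ± 0.21 (SE, limma adjusted p 0.064). It passed in 4 of 15 settings, those with the filter at 5 RPKM, with limma-voom, without KL replicate 2 and without KLG4 replicate 2. Xbp1, at 31.5 and 36.4 against 44.6 and 46.8 RPKM, also lay wholly higher (0.43, adjusted p of 0.17).

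Atf4, Ddit3 and Sesn2 had the smallest log2 fold changes of the 8 genes in TRMs. Atf4 was at 96.4 and 89.9 RPKM in KL and at 123 and 104 RPKM in KLG4, a log2 fold change of 0.28 that became -0.11 with TMM factors. Ddit3 overlapped at 27.5 and 30.8 against 37.8 and 27.7 RPKM, and its log2 fold change of 0.15 became -0.24. Sesn2 overlapped at 2.59 and 1.07 against 1.66 and 1.71 RPKM, and its log2 fold change of 0.01 became -0.36. These signs therefore depended on the scaling. Trib3, at 0.188 and 0.515 against 0.562 and 0.480 RPKM, was too low to be tested.

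**Figure D5:**
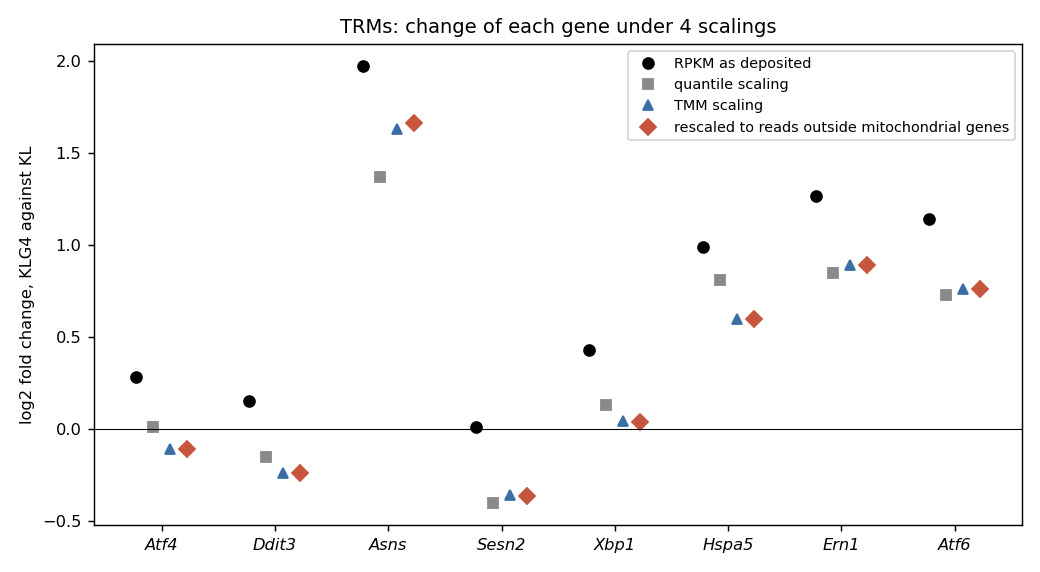
Log2 fold change (KLG4 against KL) in TRMs of the 8 genes tested, with RPKM as deposited, after quantile scaling, with TMM factors and after rescaling to reads outside mitochondrial genes. Asns, Hspa5, Ern1 and Atf6 stay above 0 under all 4 scalings, whereas Ddit3 and Sesn2 lie below 0 under the other 3.

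Among the pathway lists, 79 genes were tested in TRMs and 2 were called, both higher, beside 1.80% of all genes. Cebpb was at 13.7 and 22.4 RPKM in KL and at 55.0 and 67.6 RPKM in KLG4 (log2 fold change 1.79), and Pmaip1 was at 20.6 and 18.0 RPKM and at 40.9 and 41.7 RPKM (1.10). The adjusted p was 0.048 in limma for both, and neither was called with TMM factors. Of the 79, 60 lay wholly higher in KLG4, beside the 53.7% of all genes. The 14 ER folding genes, all of them tested, had a median of 0.79 as deposited and 0.39 with TMM factors, beside 0.38 and 0.00 for all genes. Hyou1 of that list was at 8.16 and 14.0 against 28.9 and 22.6 RPKM. Of the 19 amino acid genes 13 were tested, among them Slc7a1, which passed the filter through KLG4 alone. Mthfd2, a mitochondrial one-carbon enzyme of that list, was at 1.84 and 3.39 against 6.74 and 5.98 RPKM. Ppp1r15a overlapped, at 149 and 89.7 against 174 and 127 RPKM, and Atf3 was at 112 and 113 against 173 and 138 RPKM. The tRNA synthetase list lay at 0.38, close to all genes.

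Marker lists also differed between the genotypes in TRMs. Macrophage markers summed to 6374 and 6449 RPKM in KL and to 7476 and 6495 RPKM in KLG4, with 8 of 10 genes wholly higher. Alveolar macrophage markers summed to 8561 and 8454 RPKM and to 13130 and 12240 RPKM, and Marco was at 156 and 135 against 396 and 641 RPKM. Epithelial markers summed to 131 and 149 RPKM and to 66.2 and 106 RPKM, and AT2 markers to 174 and 186 RPKM and to 47.6 and 69.1 RPKM. The macrophage sums thus lay higher and the epithelial sums lower in KLG4, the same directions as in tumor cells. Jchain was below 1 RPKM in every TRM library, and Mzb1 had no row. The part of macrophage composition, sex and the mitochondrial share in the values of Asns, Atf6, Ern1 and Hspa5 was not tested, apart from the scalings given above.

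In MDMs none of the 9 genes tested passed the test, as was so for all 10475 genes in limma (0.00%), of which 706 (6.74%) had an unadjusted p under 0.05. None of the 9 had such a p, and limma-voom called none either. The 9 log2 fold changes ran from -0.51 to 0.47 with a median of 0.04, beside 0.02 for all genes. Of the 9, 2 lay wholly higher, 2 lay wholly lower and 5 overlapped, beside 25.4% and 19.1% of all genes.

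The sensors were again the higher pair. Atf6 was at 5.88 and 4.85 RPKM in KL and at 7.25 and 7.58 RPKM in KLG4 MDMs (log2 fold change 0.47, 95% interval -0.14 to 1.07). Ern1 was at 6.51 and 5.11 RPKM in KL and at 7.38 and 7.52 RPKM in KLG4 (0.36, -0.26 to 0.99). Eif2ak3 was at 2.89 and 3.20 against 4.61 and 4.92 RPKM, so that all 3 sensor genes lay wholly higher in KLG4 MDMs as in KLG4 TRMs, beside 25.4% and 53.7% of all genes. None of the 3 passed the test in either population. Of the 5 genes of the transducer list tested in MDMs, 1 had a log2 fold change above 0 and 4 below, with a median of -0.13. Atf4 was at 223 and 214 RPKM in KL and at 187 and 161 RPKM in KLG4 (-0.33, -0.83 to 0.17). Xbp1 was at 33.6 and 38.2 RPKM in KL and at 31.4 and 20.02 RPKM in KLG4 (-0.51, -1.26 to 0.24). These were the lower pair.

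The other genes of MDMs overlapped. Hspa5 was at 299 and 337 against 343 and 311 RPKM, and Ddit3 was at 130 and 110 against 132 and 119 RPKM. Asns was at 3.64 and 2.89 against 3.69 and 3.64 RPKM, and Sesn2 was at 5.91 and 5.49 against 6.40 and 4.48 RPKM. The interval of Hspa5 ran from -0.46 to 0.55 on the log2 scale and that of Ddit3 from -0.46 to 0.59. Trib3 was at 0.862 and 1.54 against 1.01 and 0.723 RPKM. Chac1 was at 0 and 0.942 RPKM in KL and at 1.22 and 0.399 RPKM in KLG4, from 0 to 52 reads, and was not tested.

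None of 75 pathway genes was called in MDMs, and 6 had an unadjusted p under 0.05, beside 6.74% of all genes. The looser threshold took 1 of the 75, lower in KLG4, beside 4.11% of all genes in either direction and 3.07% lower. It was Nupr1, a stress-induced chromatin protein, at 9.99 and 22.7 RPKM in KL and at 5.33 and 4.88 RPKM in KLG4 (log2 fold change -1.55, limma adjusted p 0.68). Ppp1r15a overlapped at 502 and 851 against 751 and 524 RPKM, and Atf3 at 264 and 238 against 287 and 216 RPKM. Library KL replicate 2, which stood apart in its markers, held the highest of the 4 values of Nupr1 and Ppp1r15a. Leaving out the other KL library, replicate 1, left a single KL library. The log2 fold changes of the 9 genes tested then ran from -0.78 (Trib3) to 0.60 (Atf6).

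Set side by side, the 6 groups ordered the genes differently. Ddit3 was highest in MDMs (KLG4 126 ± 9.38 and KL 120 ± 14.5 RPKM, SD, n = 2, overlapping), then in KLG4 tumor cells (99.6 ± 5.01 RPKM), KL tumor cells (59.0 ± 11.0 RPKM) and TRMs (32.8 ± 7.21 and 29.2 ± 2.37 RPKM, overlapping). Sesn2 was highest in KLG4 tumor cells (6.86 ± 0.851 RPKM), with MDMs next (KL 5.70 ± 0.294 and KLG4 5.44 ± 1.36 RPKM, the latter overlapping with it) and the KL tumor cell mean at 2.03 RPKM. Asns was highest in tumor cells of both genotypes, at 10.8 ± 1.05 and 10.5 ± 0.541 RPKM, which overlapped, and lowest in KL TRMs at 0.383 ± 0.0243 RPKM. For Atf6 the KL TRM mean of 2.94 ± 0.170 RPKM was the lowest of 6, and the KLG4 TRM mean of 6.59 ± 0.0595 RPKM was second to KLG4 MDMs at 7.41 ± 0.229 RPKM. As deposited, KL TRMs were the lowest group for Hspa5, Ern1, Atf4 and Trib3 as well, with an overlap with KLG4 TRMs for Trib3. These levels were not rescaled for the mitochondrial share, which was highest in KL TRMs. After such rescaling the log2 fold change of Atf4 in TRMs was -0.112, so its order between the TRM groups depended on the scaling. For Xbp1 the KLG4 TRM mean of 45.7 RPKM was the highest, the KLG4 MDM mean of 25.7 RPKM was the lowest, and the other 4 groups, between 31.5 and 40.3 RPKM, overlapped with their neighbours.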

How the data were processed

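Tumor cells, TRMs and MDMs of KL and KLG4 mice were compared in 2 libraries per group, and groups and replicate numbers came from the sample titles. According to the labels and the paper's methods, paired reads were trimmed with Trim Galore, aligned with HISAT2 to GRCm38 and counted per gene with featureCounts without strand. The authors deposited RPKM values in 1 table per population, with their own fold changes and p-values, which were not used. Read numbers were recovered from the RPKM values as whole multiples of a step (tolerance 0.05). Both mates were mostly counted, so counting noise exceeds the read numbers.

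The test was limma 3.58.1 in R 4.3.3, run per table on log2(RPKM + 0.1), a scale that understates changes of low genes. It took genes that reached 1 RPKM in 2 or more libraries, was two-sided with a mean-variance trend, was checked on simulated data, and was adjusted by Benjamini-Hochberg over all genes of a table. Genes called had an adjusted p under 0.05, and the looser threshold is one the paper states for CD8+ T cells. Named besides the 10 genes were, per pathway list and population, the 2 largest increases and decreases that passed with groups apart and 1 RPKM in a group mean, with Eif2ak3, Ppp1r15a, Atf3 and cell type markers. Slc3a2, Slc7a1, Mthfd2, Hyou1, S100a9, Tars, Sil1, Dnajb9, Edem1 and Herpud1 were named after their values were seen. The rule for the 10 genes used no measured value, but the genes, lists and tests were chosen with earlier results of these data known. Alternatives were the pseudocount, the filter, 3 scalings, the trend, a replicate block, limma-voom and leaving out each library.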

Additional observations from a re-analysis of the deposited data

Results flagged for a closer look

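Atf4 and Xbp1 were marked because the KLG4 pair was wholly above the KL pair in TRMs and wholly below it in MDMs. The log2 fold change of Atf4 was 0.28 in TRMs and -0.33 in MDMs, and that of Xbp1 was 0.43 in TRMs and -0.51 in MDMs. Neither passed the test in either population, and the difference between the populations was not tested, since their tables were normalized separately. With TMM factors Atf4 was at -0.11 and Xbp1 at 0.039 in TRMs, so that Atf4 no longer had opposite signs and Xbp1 was close to 0. No group was large enough to look for a single sample far from the others.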

How the results depend on the processing

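With 2 libraries per group, and sex, mitochondrial share and other cell types differing between groups, the calls describe these libraries. Depth limits Chac1, Trib3 and Derl3, and Asns in TRMs. Of 364 alternative values of single genes, 318 kept their direction and side of the threshold, 4 lost the call, 10 gained one and 32 changed sign, 1 of them with a call (Hspa5 in tumor cells without KL replicate 2). Apart from alternatives that by construction test fewer genes or use fewer libraries, the cause of a change was not tested. Where a library was left out, the lone library was assumed to vary like the other group.

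In tumor cells, 3 genes were called in every alternative with all libraries, except 1 with the filter at a mean of 5 RPKM, which tested 6 of them. Leaving out a library gave 1 to 5. Among all genes the filter gave 3284 calls in place of 5543, and leaving out a library gave 1843 to 7243. The pathway lists had 5 to 38 in place of 22. Without KLG4 replicate 1 or 2, only Sesn2 was called, and without KL replicate 2, Atf4 (-0.43) and Hspa5 (-0.12) were called lower.

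In TRMs, in place of 0 of the 10 genes, 1 was called with the filter at 5 RPKM, 2 with limma-voom and 0 to 4 when a library was left out, 4 of them without KL replicate 2 and 1 without KLG4 replicate 2. In place of 198 among all genes, there were 490 at a pseudocount of 1, 122 at 0.01, 120 with no filter, 557 with the filter at 5 RPKM, 60 with quantile scaling, 30 with TMM, 31 after rescaling to reads outside mitochondrial genes, 12 with no trend, 470 with the replicate block and 762 with limma-voom. Without a library there were 212 to 2631. In place of 2 pathway genes there were 4 at a pseudocount of 1, 10 with the filter at 5 RPKM, 10 with limma-voom and 2 to 30 without a library. There were 0 at a pseudocount of 0.01, with no filter, with quantile scaling, with TMM, after rescaling and with no trend.

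In MDMs, leaving out a library gave 0 to 2592 calls among all genes and 0 to 19 among pathway genes, where 2592 and 19 came without KL replicate 1.

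These log2 fold changes changed sign. In tumor cells Asns was at -0.004 and Atf6 at -0.028 with quantile scaling, and Xbp1 was at 0.009 with TMM, 0.041 after rescaling and 0.008 with limma-voom. Leaving out a library gave -0.43 to 0.068 for Atf4, -0.057 to 0.138 for Asns, -0.12 to 0.337 for Hspa5, -0.032 to 0.408 for Ern1 and -0.162 to 0.361 for Atf6. In TRMs, with quantile scaling, TMM, rescaling and limma-voom in turn, Ddit3 was at -0.157, -0.239, -0.24 and -0.20, and Sesn2 at -0.405, -0.363, -0.366 and -0.373. Atf4 was at -0.111 with TMM, -0.112 after rescaling and -0.099 with limma-voom, and Sesn2 was at -0.023 at a pseudocount of 1. Leaving out a library gave -0.074 to 0.377 for Ddit3 and -0.593 to 0.608 for Sesn2. In MDMs Hspa5 was at -0.018 after rescaling, and leaving out a library gave -0.054 to 0.193 for Ddit3, -0.34 to 0.166 for Sesn2 and -0.046 to 0.127 for Hspa5.

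Replicate numbers are shared between the genotypes, but libraries with the same number did not deviate together (correlation of 0.036 in tumor cells, -0.11 in TRMs and 0.071 in MDMs). With 2 libraries per group this cannot show whether they were paired. With the replicate block, 3, 0 and 0 of the genes were called in tumor cells, TRMs and MDMs, and 18, 3 and 0 pathway genes.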
